A study of Danio rerio with 12 samples.

Results

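The genes described here are 50 genes of the Bmp and TGF-beta pathways measured in whole zebrafish embryos. They were chosen by symbol, with earlier results of these data known. The rule took the genes named bmp, bmpr, smad, gdf, tgfb, acvr, chrd, nog, szl, bambi, inhb, ndr, fst, tll1 or id with a number or letter, among 8793 genes that the array annotation names with a single symbol. The 50 genes had 63 probe sets in all, and each gene is shown by the one whose mean over the 12 arrays was highest. Fitting the symbol rule does not make a gene a pathway component: bmp2k, a kinase named for its induction by BMP2 in mouse cells, and tgfbi, an extracellular matrix gene named for its induction by TGF-beta in human cells, entered by name, as did fstl1b and fstl5, which are related to follistatin.

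Embryos had been injected at the 1 to 2 cell stage with antisense morpholinos, which block translation or splicing of a transcript. The morphants received morpholinos against pbx2 and pbx4 together, and the controls a control morpholino that the labels call pbx2 mutant. This was read as a mutated version of the pbx2 morpholino and not as a mutant allele of the embryos. Apart from this, no allele or agent is named in the labels. RNA of whole embryos was taken at 10 somites and at 18 somites and measured on Affymetrix arrays, with 3 arrays in each of 4 groups. Pbx2 and Pbx4 are TALE homeodomain factors that bind DNA with Hox proteins. The labels number the replicates and do not say whether they came from separate clutches, so p-values reflect array-to-array spread that may be technical.

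Bmp ligands are secreted dimers that bind pairs of type I and type II serine/threonine kinase receptors. The receptors phosphorylate Smad1 and Smad5, which enter the nucleus and switch on targets such as the Id genes, while Nodal, activin and TGF-beta ligands act through Smad2 and Smad3. In the zebrafish gastrula, ventral Bmp and its dorsal antagonists Chordin and Noggin set the dorsoventral axis, and Sizzled protects Chordin by inhibiting the tolloid proteases that cleave it. Several targets, among them szl, bambia, smad6 and smad7 genes, restrain the pathway that induces them. During segmentation the same signals pattern the tail, eye, heart, fins and blood.

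Values are log2 signals per probe set, so a difference of 1 is a doubling, and ± gives the standard error of the model unless marked otherwise. Calls were made at an adjusted p under 0.05, with limma's moderated test and Benjamini-Hochberg adjustment over 15502 probe sets. Array medians lay between 7.289 and 7.313 at 10 somites and between 6.518 and 6.569 at 18 somites, so stages are compared only after each array was centred on its median. The probe set of pbx2 read 8.40 to 8.76 in controls and 10.24 to 10.33 in morphants at 10 somites, and 7.997 to 8.23 against 9.52 to 9.92 at 18 somites. Both this probe set and that of pbx4 were called higher in morphants at both stages. For pbx4 the differences were 0.45 (adjusted p = 0.00606) and 0.34 (adjusted p = 0.0192). Since morpholinos can act without lowering a transcript, this is no check of the knockdown. The 8 probe sets for tag sequences that embryos lack had group means of 4.182 to 6.129 in the 10 somite controls and 3.618 to 5.249 in the 18 somite controls. In all 4 groups 41 of the 50 genes read above the tag range, while bmp15, bmp6, ndr1, tgfb1a and fstl5 lay within it throughout. Some markers of the embryo's cell types differed between morphants and controls. The array mean of 7 neural markers ran from 9.53 to 9.616 in controls and from 8.701 to 8.779 in morphants at 10 somites, and from 8.474 to 8.618 against 7.924 to 8.05 at 18 somites, with egr2b in the tag range in morphants. Most of this shift was egr2b, a hindbrain gene, which differed by -4.25 and -3.32, against list medians of -0.32 and -0.25. Of the 7 neural markers 4 were called lower at 10 somites and 3 at 18 somites, and none higher. These are 57.1% and 42.9% of that list, against 8.17% and 12.5% of all probe sets. Over the other 6 markers the array means ran from 9.555 to 9.634 against 9.298 to 9.376 at 10 somites and overlapped at 18 somites, from 8.594 to 8.729 against 8.506 to 8.639. The array mean of 6 epidermal markers ran from 11.66 to 11.7 against 11.58 to 11.64, without overlap, and then from 10.76 to 10.84 against 10.75 to 10.8. Of these 6, 1 was called lower at 10 somites, and 1 higher and 1 lower at 18 somites. These are 16.7% and 33.3% of that list, against 8.17% and 12.5% of all probe sets. The array means of 6 muscle markers were lower in morphants at both stages without overlap, those of 5 blood and vessel markers at 10 somites, and those of 3 notochord and hatching gland markers overlapped at both stages. The muscle markers went both ways, with median differences of -0.22 and -0.03. At 10 somites 2 differences were positive and 4 negative, from -1.03 to 0.21. At 18 somites 3 were positive and 3 negative, from -0.905 to 0.33. Of 14 genes of the p53 response, which morpholinos can induce, 5 were higher and none lower in morphants at 10 somites, and none was higher and 2 were lower at 18 somites. The p53 calls are 35.7% and 14.3% of that list, against 8.17% and 12.5% of all probe sets. The part of these marker and p53 changes in the results below was not tested, and fewer cells of a type cannot be told apart from less RNA per cell.

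At 10 somites few of the 50 genes differed between morphants and controls. The ligand genes bmp3 and bmp2b were higher in morphants, and the antagonist gene szl and the ligand gene gdf6a were lower. These 4 are 8% of the genes, and 8.17% of all probe sets were called in this comparison, 4.32% higher and 3.85% lower, so the count is near the background. Of the 8793 named genes with 1 probe set each, 9.51% were called. With the replicate number as a block, 5 of the 50 genes and 2040 rather than 1267 probe sets were called. With array weights 8 of the 50 genes were called, and 2 were called without the morphant array numbered 1 or without all 4 arrays numbered 1. The median difference of the 50 genes was -0.03, against 0.00 over all probe sets, and the range ran from -0.78 to 0.72.

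At 18 somites 10 of the 50 genes were called, which is 20%, against 12.5% of all probe sets and 14.8% of the 8793 named genes with 1 probe set each. In morphants 9 were higher: the ligand genes bmp2b, bmp3 and inhbb, the receptor gene bmpr1ba, the pseudoreceptor gene bambia, smad2, smad7, id3 and id4. The matrix gene tgfbi was lower. Over the whole array 7.11% of probe sets were higher and 5.37% lower. This balance depends on the scaling: 1102 probe sets were higher and 833 lower as deposited, 905 and 1008 with centred arrays, and 1074 and 982 with quantile normalization. Of the 50 genes, 8 were higher and 1 lower under either alternative. In the main fit, on values as deposited, the median difference of the 50 genes was 0.05, against 0.00 over all probe sets. Of the called genes only smad2 has more than 1 probe set. Only bmp2b and bmp3 were called at both stages, and 38 genes were called at neither. All 3 morphant arrays lay above or below all 3 control arrays for 14 of the 50 genes at 10 somites and for 15 at 18 somites, which are 28% and 30%, against 28.4% and 28.1% of all probe sets.

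**Figure D1:**
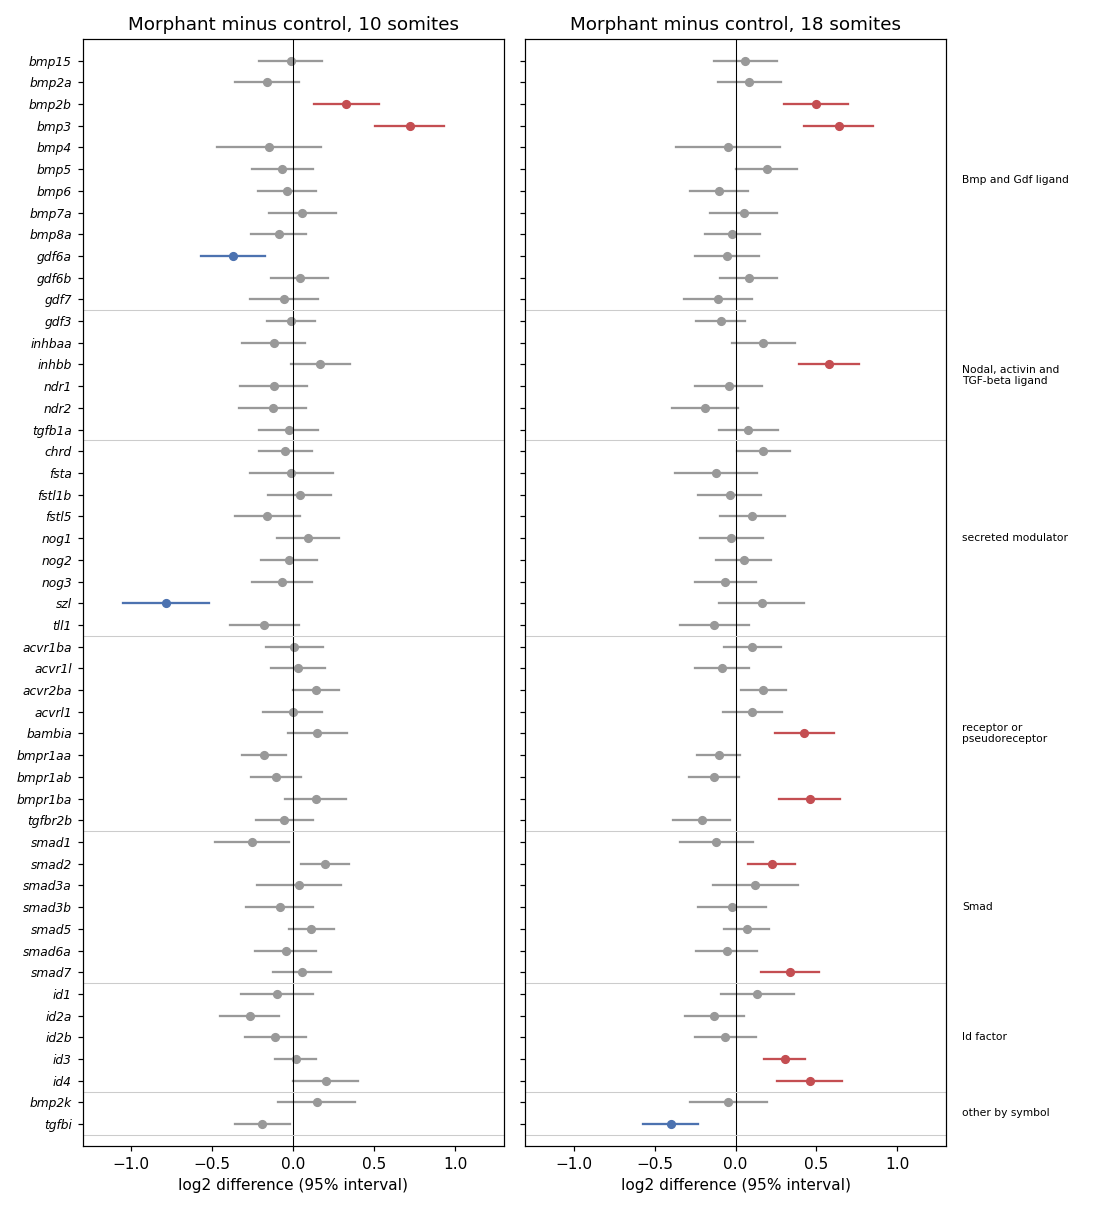
Morphant minus control log2 difference of each of the 50 genes at 10 somites (left) and 18 somites (right), grouped by role, with the 95% interval of the model. Red points were called higher, blue points lower and grey points were not called; 4 genes were called at 10 somites and 10 at 18 somites, of which bmp2b and bmp3 at both.

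Among the 12 Bmp and Gdf ligand genes, bmp3 had the largest difference at both stages. Bmp3 is an atypical ligand that in mouse and frog restrains Bmp and activin signalling. In the order of the replicate numbers, bmp3 read 9.37, 9.05 and 9.41 in controls against 10.09, 9.83 and 10.07 in morphants at 10 somites, then 8.26, 8.05 and 8.12 against 8.83, 8.75 and 8.76 at 18 somites. Every morphant array was above every control array of its stage. The differences were 0.72 ± 0.10, a 1.65-fold higher signal (adjusted p = 0.000555), and 0.64 ± 0.10, 1.56-fold (adjusted p = 0.00097), and both calls held under all 22 alternative settings and omissions of arrays. At 10 somites its difference ranked 34 from the highest among 15502 probe sets.

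The ligand gene bmp2b, mutated in the dorsalised swirl fish, read 8.87, 8.58 and 8.63 in controls against 9.08, 8.88 and 9.10 in morphants at 10 somites. The 18 somite arrays read 7.28, 7.11 and 7.24 against 7.61, 7.67 and 7.83. The groups did not overlap at either stage. The gene was 0.33 ± 0.09 higher at 10 somites, 1.26-fold (adjusted p = 0.0431), and 0.50 ± 0.09 higher at 18 somites, 1.41-fold (adjusted p = 0.00349). The first call was lost when any of 7 single arrays was left out, with an adjusted p of up to 0.168 without the control array numbered 2 at 10 somites, and under quantile normalization (0.0675), with that stage fitted alone (0.0737) and without the 4 arrays numbered 1 (0.0947). The second call held throughout.

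The ligand gene gdf6a acts in dorsal retina and skeleton. It read 7.78, 7.84 and 8.08 in controls against 7.41, 7.47 and 7.70 in morphants at 10 somites, where the groups did not overlap, and 6.996, 7.07 and 7.09 against 6.93, 7.02 and 7.05 at 18 somites, where they did. It was lower by 0.37 on the log2 scale at 10 somites (-0.37 ± 0.09, 1.29-fold, adjusted p = 0.0226) and not called at 18 somites (-0.05, 95% interval -0.25 to 0.14). The first call was lost without control 3 at 10 somites, without morphant 1 and without morphant 2, with adjusted p from 0.0745 to 0.0883, as well as with that stage fitted alone (0.0659) and without the 4 arrays numbered 1 (0.123).

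The genes of Bmp4 and Bmp7, which act with Bmp2b in the gastrula, were not called. For bmp4 the arrays read 7.41, 7.34 and 6.98 in controls against 7.14, 6.93 and 7.22 in morphants at 10 somites, then 6.83, 6.46 and 6.36 against 6.60, 6.71 and 6.20 at 18 somites. For bmp7a they read 7.07, 7.09 and 6.91 against 7.11, 7.09 and 7.05, and then 5.29, 5.27 and 5.36 against 5.21, 5.63 and 5.24. Groups overlapped for both genes at both stages. The 95% intervals at 10 and 18 somites were -0.47 to 0.17 and -0.37 to 0.28 for bmp4, and -0.15 to 0.26 and -0.16 to 0.26 for bmp7a. The remaining ligand genes of this class, bmp2a, bmp5, bmp6, bmp8a, bmp15, gdf6b and gdf7, were not called, with differences from -0.16 to 0.04 at 10 somites and from -0.11 to 0.19 at 18 somites.

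Of 6 Nodal, activin and TGF-beta ligand genes, inhbb alone was called, at 18 somites. It encodes the beta B subunit of activin and inhibin. The arrays read 7.28, 7.31 and 7.24 in controls against 7.67, 7.87 and 8.03 in morphants at 18 somites, so that the lowest morphant array stood above all controls. The difference was 0.58 ± 0.09, 1.49-fold (adjusted p = 0.000728). The 10 somite arrays read 8.18, 8.19 and 8.07 against 8.39, 8.21 and 8.35, again without overlap. Their difference of 0.17 ± 0.09 was not called (adjusted p = 0.266).

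Its paralogue inhbaa differed by -0.12 at 10 somites and 0.17 at 18 somites and was not called. A second inhbaa probe set differed by -0.02 at 10 somites and by 0.30 at 18 somites, not called either (adjusted p = 0.128 at 18 somites). The Nodal ligand gene ndr2, mutated in cyclops, read 6.36, 6.22 and 6.20 in controls against 6.34, 5.92 and 6.14 in morphants at 10 somites, then 5.71, 5.69 and 5.67 against 5.61, 5.47 and 5.42 at 18 somites. Its groups did not overlap at the later stage, yet the difference of -0.19 was not called (adjusted p = 0.235). The TGF-beta ligand gene tgfb1a read 4.90, 4.86 and 4.71 against 4.91, 4.74 and 4.73, and then 4.29, 4.07 and 4.22 against 4.27, 4.17 and 4.38, all in the tag range. The Nodal ligand gene ndr1 and the Nodal co-ligand gene gdf3 had differences from -0.12 to -0.01 and were not called.

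The 9 secreted modulators held the lowest difference of the 50 genes, that of szl at 10 somites. Sizzled is a Frizzled-related protein made in ventral Bmp-responding tissue and mutated in the ventralised ogon fish. The arrays read 8.61, 8.45 and 8.22 in controls against 7.75, 7.46 and 7.72 in morphants at 10 somites, without overlap. The gene was lower by 0.78 (-0.78 ± 0.12, 1.72-fold, adjusted p = 0.0014), and the call held under the 21 alternatives that test this probe set. The probe set is not among the 60% brightest. The 18 somite arrays read 4.03, 3.78 and 4.14 against 4.01, 4.10 and 4.33, within the tag range in both groups, so background limits what could be seen of a fall there. The difference was 0.16 (95% interval -0.10 to 0.43).

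The antagonist gene chrd, mutated in chordino, read 8.29, 8.30 and 8.27 in controls against 8.20, 8.17 and 8.35 in morphants at 10 somites, with a difference of -0.05 (95% interval -0.21 to 0.12). The 18 somite arrays read 6.33, 6.27 and 6.34 against 6.497, 6.34 and 6.62. The later difference of 0.17 was not called (adjusted p = 0.174). The antagonist gene nog1 read 7.32, 7.33 and 7.36 against 7.48, 7.25 and 7.56, and then 6.45, 6.44 and 6.53 against 6.32, 6.39 and 6.63. Its differences were 0.09 and -0.03. Noggin paralogues nog2 and nog3, the activin antagonist gene fsta, the tolloid protease gene tll1, fstl1b and fstl5 had differences from -0.18 to 0.04 at 10 somites and from -0.13 to 0.10 at 18 somites, and none was called.

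Of the 9 genes of receptors, bmpr1ba and bambia were called at 18 somites and none at 10 somites. Bmpr1ba is a type I Bmp receptor. Its 18 somite arrays read 7.59, 7.44 and 7.42 in controls against 8.10, 7.89 and 7.83 in morphants, without overlap. The gene was 0.46 ± 0.09 higher, 1.37-fold (adjusted p = 0.00406). Its arrays at 10 somites read 8.77, 8.69 and 8.55 against 8.88, 8.70 and 8.85, a difference of 0.14 (adjusted p = 0.382). The paralogous receptor genes bmpr1aa and bmpr1ab differed by -0.18 and -0.11 at 10 somites and by -0.10 and -0.13 at 18 somites, none of them called. Other bmpr1aa probe sets differed by -0.21 and -0.14 at 10 somites and by -0.12 and -0.06 at 18 somites, none called.

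Bambi is a pseudoreceptor without a kinase domain that dampens Bmp and TGF-beta signals and is itself expressed where Bmps are. The bambia arrays read 8.19, 8.14 and 8.20 in controls against 8.54, 8.49 and 8.77 in morphants at 18 somites. All morphant arrays were higher, by 0.43 ± 0.09 on average, 1.34-fold (adjusted p = 0.00545). Those of 10 somites read 9.56, 9.31 and 9.29 against 9.53, 9.53 and 9.54, where the first control array lay above the morphants (difference 0.15, adjusted p = 0.329). Both receptor calls at 18 somites held under all 22 alternatives. The activin type I and II receptor genes acvr1ba and acvr2ba, the Bmp type I receptor genes acvr1l and acvrl1, and the TGF-beta type II receptor gene tgfbr2b had differences from -0.05 to 0.14 at 10 somites and from -0.21 to 0.17 at 18 somites, and none was called. A second tgfbr2b probe set differed by -0.22 at 10 somites, without overlap (adjusted p = 0.0899), and by -0.12 at 18 somites. Other acvr2ba probe sets differed by 0.26 and 0.09 at 10 somites and by 0.20 and 0.19 at 18 somites, none called.

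Of 7 Smad genes, smad7 and smad2 were called at 18 somites and none at 10 somites. Smad7 is an inhibitory Smad that blocks receptors and is induced by the signals it restrains. It read 7.303, 7.32 and 7.43 in controls against 7.501, 7.77 and 7.80 in morphants at 18 somites, without overlap, and was 0.34 ± 0.08 higher, 1.26-fold (adjusted p = 0.0185). This call was lost on leaving out any of 4 single arrays at 18 somites, with adjusted p of 0.0687 without the control array numbered 1, 0.0582 without control 2, 0.0677 without morphant 2 and 0.068 without morphant 3, and with that stage fitted alone (0.0537). The 10 somite arrays of smad7 read 8.54, 8.51 and 8.42 against 8.47, 8.53 and 8.64, a difference of 0.05.

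Smad2, an effector of Nodal and activin, read 7.504, 7.54 and 7.67 in controls against 7.75, 7.76 and 7.79 in morphants at 10 somites, then 6.77, 6.80 and 6.89 against 6.95, 7.08 and 7.11 at 18 somites. The groups did not overlap at either stage. The difference of 0.22 ± 0.07 at 18 somites was barely past the threshold (adjusted p = 0.0495), and the call was lost under 17 of 22 alternatives. These were the omission of any of 10 single arrays, with adjusted p up to 0.159 without the control array numbered 1 at 18 somites, and 7 other settings, among them centred arrays (0.0804) and quantile normalization (0.0725). The second smad2 probe set differed by 0.12 (adjusted p = 0.382). At 10 somites the difference was 0.20 and was not called (adjusted p = 0.0954), but it was with array weights (0.0241) and with a block shared by both stages (0.042).

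The Bmp effector genes smad1 and smad5 were not called. For smad1 the arrays read 8.64, 8.64 and 8.25 in controls against 8.37, 8.20 and 8.19 in morphants at 10 somites, then 7.75, 7.76 and 7.62 against 7.75, 7.54 and 7.496 at 18 somites. Its differences were -0.25 ± 0.11 (adjusted p = 0.165) and -0.12. The first was called lower under 3 of 22 alternatives, with array weights (adjusted p = 0.026), with a block shared by both stages (0.0407) and without the control array numbered 3 at 10 somites (0.0228). For smad5, mutated in somitabun, they read 9.71, 9.72 and 9.69 against 9.77, 9.84 and 9.85, and then 8.64, 8.59 and 8.77 against 8.73, 8.78 and 8.69. Its morphant arrays stood above the controls at 10 somites, by 0.11 (adjusted p = 0.343), and overlapped at 18 somites. A second smad5 probe set, with a mean of 3.77 over the 12 arrays, differed the other way, by -0.08 and -0.17, and was not called. The inhibitory gene smad6a and the effector genes smad3a and smad3b had differences from -0.08 to 0.12 over both stages.

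Id proteins are helix-loop-helix factors without a DNA-binding region that hold back differentiation, and their genes are direct targets of Bmp Smads in many cells. At 18 somites id4 and id3 were called higher and the other 3 Id genes were not called. The id3 arrays read 9.50, 9.59 and 9.52 in controls against 9.85, 9.79 and 9.88 in morphants, with no overlap. The gene was 0.30 ± 0.06 higher, 1.23-fold (adjusted p = 0.00465), and this call was lost when the 4 arrays numbered 1 were left out together (adjusted p = 0.0943). The 10 somite arrays read 10.46, 10.47 and 10.43 against 10.45, 10.45 and 10.51, a difference of 0.02 (95% interval -0.11 to 0.14).

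The id4 arrays read 6.63, 6.37 and 6.29 in controls against 6.85, 6.79 and 7.01 in morphants at 18 somites. All morphant arrays were higher, by 0.46 ± 0.09 on average, 1.37-fold (adjusted p = 0.00639). On the 10 somite arrays id4 read 7.09, 6.92 and 7.09 against 7.25, 7.302 and 7.14, again without overlap, but the difference of 0.20 was not called (adjusted p = 0.227).

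The id1 gene, a common readout of Bmp signalling, was not called at either stage. It read 12.64, 12.57 and 12.62 in controls against 12.55, 12.42 and 12.57 in morphants at 10 somites, then 11.77, 11.70 and 11.87 against 11.66, 11.91 and 12.18 at 18 somites. The 95% intervals were -0.32 to 0.13 and -0.09 to 0.36. For id2a the arrays read 9.46, 9.40 and 9.46 in controls against 9.25, 9.29 and 8.98 in morphants at 10 somites, then 8.80, 8.89 and 8.82 against 8.60, 8.69 and 8.82 at 18 somites. All morphant arrays were lower at 10 somites, and the difference of -0.27 ± 0.08 missed the threshold (adjusted p = 0.0701) but passed it with the replicate number as a block (adjusted p = 0.0475) and with array weights (adjusted p = 0.0325). The id2b gene differed by -0.11 and -0.06.

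Of the genes that entered by name, tgfbi was lower in morphants at 18 somites and bmp2k was not called. The tgfbi arrays read 9.16, 9.14 and 9.27 in controls against 8.83, 8.84 and 8.69 in morphants at 18 somites, a difference of -0.40 ± 0.08, 1.32-fold (adjusted p = 0.00508), which held under all 22 alternatives. The 10 somite arrays read 9.72, 9.75 and 9.96 against 9.71, 9.54 and 9.60. Groups did not overlap at either stage, though the earlier difference of -0.19 was not called (adjusted p = 0.17). For bmp2k the differences were 0.15 and -0.05.

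**Figure D2:**
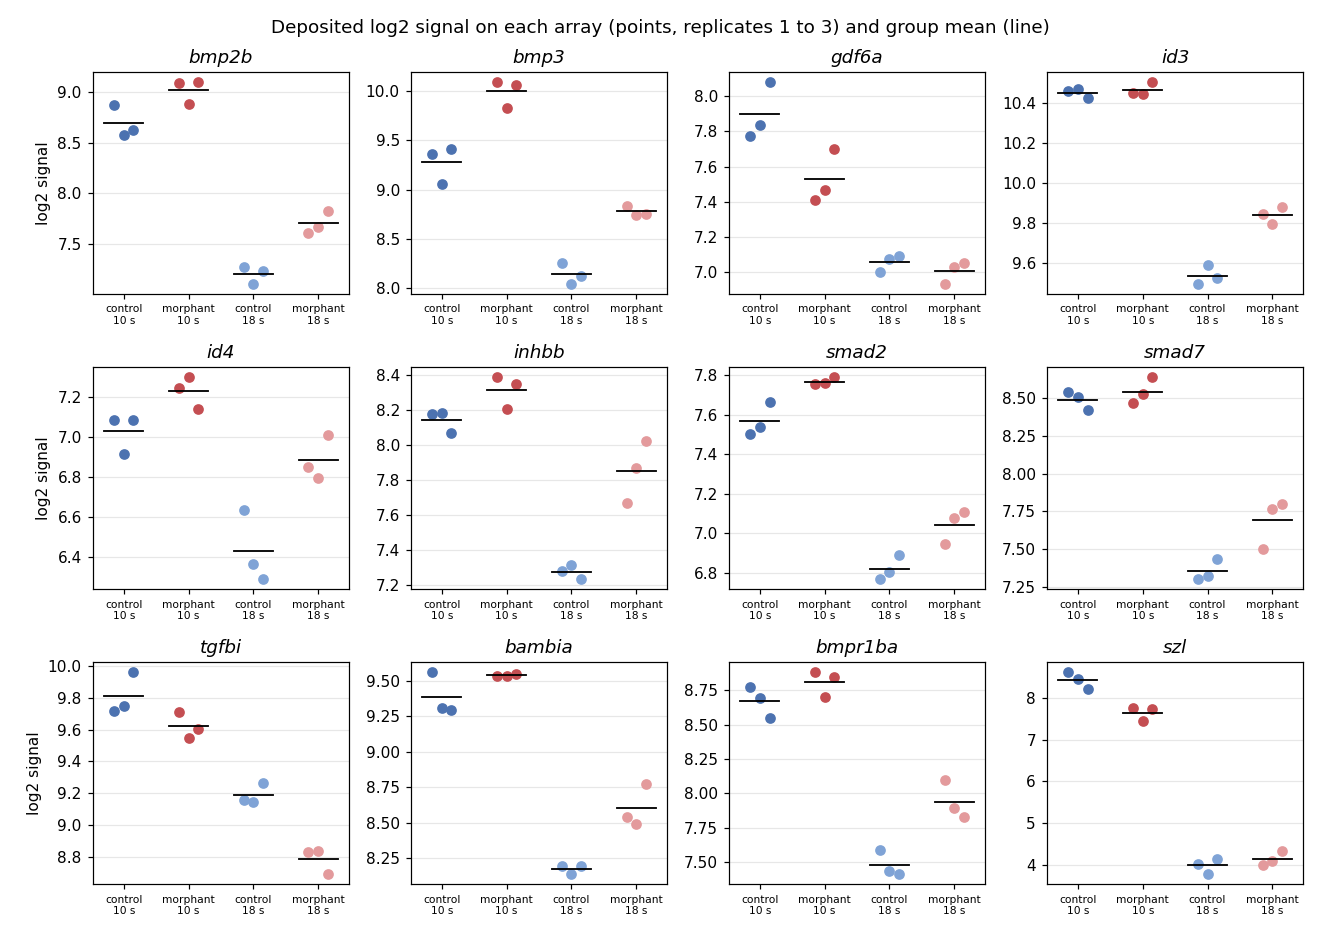
Log2 signal on each array (points, replicates 1 to 3 from left to right) and group mean (line) of the 12 genes called at 10 or 18 somites, with each panel on its own scale that does not start at 0. Morphant arrays stand above control arrays for bmp2b and bmp3 at both stages, and below them for szl and gdf6a at 10 somites. At 18 somites they stand below for tgfbi and above for the remaining 7 genes. Groups also do not overlap at 10 somites for inhbb, id4 and smad2 (morphants above) and tgfbi (morphants below), where none was called.

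Whether the morphant effect changed between the stages was tested directly as the difference between the effects. None of the 50 genes was called with limma, and 0.0323% of all probe sets were. A call at one stage and not at the other therefore does not show that the effects differ. Limma's unadjusted p was under 0.05 for 8 of the 50 genes, against 1257 of 15502 probe sets and 819 of 8793 named genes. The largest difference among the 50 genes was that of szl, 0.95 ± 0.17 (limma's unadjusted p = 8.4e-05, adjusted p = 0.0686), which ranked 5 from the highest of 15502 probe sets. It was called with the replicate number as a block (adjusted p = 0.0205), with an intensity trend (0.0471), with array weights (0.0337) and without the control array numbered 3 at 10 somites (0.0401). Since szl at 18 somites lay in the tag range, background bears on this value. For id3 the difference was 0.29 ± 0.08 (unadjusted p = 0.00401 and adjusted p = 0.325, by limma), and for inhbb 0.41 ± 0.12 (unadjusted p = 0.00467 and adjusted p = 0.34, by limma).

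From 10 to 18 somites the antagonist genes szl and chrd and the ligand genes bmp7a and bmp2b fell in control embryos relative to the array median, and bmp5 rose. Of the 50 genes 6 were called higher and 18 lower with stage, together 48%, against 50.9% of all probe sets, 24.4% higher and 26.5% lower. Falls outnumbered rises more strongly among named genes, with 1921 of 8793 higher and 2575 lower. Among the 60% brightest probe sets 1462 were higher and 3245 lower, and of the 50 genes 4 and 14. In morphants 8 rose and 14 fell, together 44%, against 53.4%, 24.9% higher and 28.6% lower. With the replicate number as a block 13 rather than 8 genes rose in morphants, the 5 gained being tgfbr2b, gdf7, gdf6a, ndr1 and fstl5 (adjusted p from 0.0151 to 0.0486), and with quantile normalization 12 rose. Of the gained genes ndr1 and fstl5 lay in the tag range in every group, and gdf7 in both groups at 10 somites. The tgfb1a gene, among the 8 rises at 0.23, also lay in the tag range throughout. Background bears on these rises. In controls the block added rises of fsta and ndr2 (adjusted p = 0.0372 and 0.0421). These counts depend on the scaling. As deposited, the median probe set shifted by -0.78 in controls and -0.77 in morphants, and all 50 genes were called, 49 of them lower and 1 higher in either kind of embryo.

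The fall of szl was the largest of all 15502 probe sets in control embryos. Centred on the array median it went from 1.13 ± 0.19 to -2.54 ± 0.18 (SD, n = 3), a change of -3.67 ± 0.12 (adjusted p = 1.74e-10), 12.8-fold. In morphants, which started lower, it fell by 2.75 (-2.75 ± 0.12, adjusted p = 2.05e-09), also the lowest of all probe sets. Both end in the tag range, so background limits the size of the fold. The chrd gene changed by -1.21 ± 0.07 in controls (adjusted p = 3.31e-08) and -1.01 ± 0.07 in morphants. The ligand gene bmp7a fell by 0.95 and 0.98 and bmp2b by 0.72 and 0.57 on the log2 scale in controls and morphants, and the Nodal co-ligand gene gdf3 by 0.55 and 0.65. The inhibitory gene smad6a fell by 0.46 and 0.49.

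The ligand gene bmp5 rose by 1.24 ± 0.09 in controls (adjusted p = 1.21e-07) and by 1.48 ± 0.09 in morphants (adjusted p = 3.04e-08), and it was the 1 gene that was also higher without centring. The other 5 rises in controls became falls without centring: id2b at 0.43, bmp8a at 0.39, the receptor gene tgfbr2b at 0.35, fstl1b at 0.35 and gdf7, in the tag range at 10 somites, at 0.30. In morphants their centred changes were 0.46, 0.44, 0.18, 0.25 and 0.23. Other probe sets of these genes differed in size: in controls those of bmp8a changed by 0.19 and 0.98, that of tgfbr2b by 0.30, and that of id2b by 0.30 without being called (adjusted p = 0.137). In morphants those of bmp8a changed by 0.20 and 0.93, that of tgfbr2b by 0.38 and that of id2b by 0.47. All of these were called (adjusted p = 0.000725 for tgfbr2b and 0.025 for id2b). The morphant changes of the tgfbr2b probe set shown and of gdf7 were not called (adjusted p = 0.083 and 0.0503). They were called with the replicate number as a block (adjusted p = 0.0486 and 0.0367). The morphant call of fstl1b (adjusted p = 0.0336) was lost without any of 5 single arrays, with an adjusted p of 0.16 and a change of 0.16 without the morphant array numbered 2 at 18 somites. In controls the gdf7 call was lost without either of 2 single arrays, with adjusted p up to 0.078 without the control array numbered 3 at 10 somites.

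**Figure D3:**
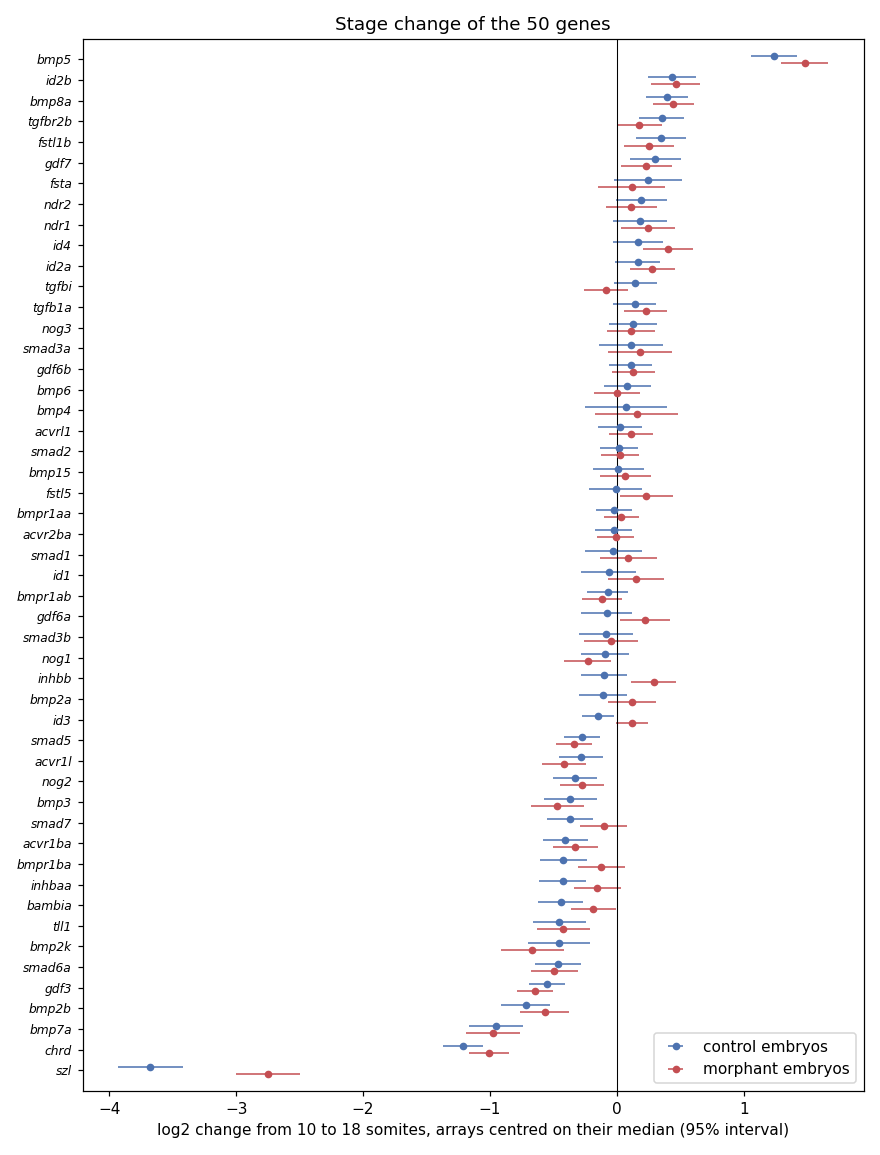
Change from 10 to 18 somites of the 50 genes in control (blue) and morphant (red) embryos, in log2 units after each array was centred on its median, with 95% intervals and genes ordered by the change in controls. The fall of szl, at -3.67 in controls and -2.75 in morphants, stands apart from chrd at -1.21, and bmp5 at 1.24 is the largest rise in controls.

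Other genes of the pathways were looked at through lists drawn from textbook roles. The lists were chosen with earlier results of these data known, so the shares called in them are no independent support. Among 27 further genes known to respond to Bmp in zebrafish or other vertebrates, 10 were higher in morphants at 18 somites and none was lower, with a median difference of 0.15 against 0.00 over all probe sets. These were junba, the heart and fin factor gene hand2, the blood and ectoderm factor genes gata2a and gata3, the ventral homeobox genes ved, vent and vox, msx1b, dlx5a and dlx3b. The 10 genes are 37% of the list, where 12.5% of all probe sets and 14.8% of named genes were called. The number changed when single arrays were left out: 6 of the 10 calls held when any one array was left out, namely junba, hand2, gata2a, ved, vox and msx1b, and 4 did not. The call of dlx3b was lost without any of 10 arrays, with adjusted p up to 0.148 without the control array numbered 2 at 18 somites. That of vent was lost without any of 9, up to 0.162 without the morphant array numbered 2 at 18 somites. For gata3 it was any of 5 arrays (up to 0.103, morphant 1 left out) and for dlx5a any of 3 (up to 0.0756, morphant 3 left out). Of the list, 6 genes were higher without the control array numbered 1 or without that numbered 2, and 5 without the 4 arrays numbered 1. With centred arrays or with quantile normalization, 8 were higher and 1 lower.

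The largest of these differences was that of junba, a transcription factor gene that also responds to stress. It read 6.22, 6.41 and 6.63 in controls against 6.87, 7.33 and 7.64 in morphants at 18 somites, a difference of 0.86 ± 0.18 (adjusted p = 0.0059). The hand2 arrays read 8.28, 8.24 and 8.40 against 9.05, 9.19 and 8.98, a difference of 0.77 ± 0.07 (adjusted p = 1.8e-05). The gata2a arrays read 8.10, 7.96 and 8.25 against 8.78, 8.87 and 8.74, 0.70 ± 0.09 higher (adjusted p = 0.000257), and the ved arrays 7.46, 7.46 and 7.51 against 8.06, 8.19 and 8.26, 0.69 ± 0.14 higher (adjusted p = 0.00464). None of these groups overlapped. The remaining called genes were higher by 0.29 (dlx3b) to 0.38 (vox). The fin field factor gene tbx5a, which was not called at -0.28 (adjusted p = 0.0627), was called lower with the replicate number as a block (adjusted p = 0.0113), with centred arrays (0.0389) and with quantile normalization (0.0479).

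At 10 somites the same list gave calls in both directions. Together they were 25.9% of the list, against 8.17% of all probe sets and 9.51% of named genes. The genes hand2 (0.42 ± 0.07, adjusted p = 0.00206), vent (0.43 ± 0.11, adjusted p = 0.0312) and gata2a (0.32 ± 0.09, adjusted p = 0.0435) were higher. The tail and gut homeobox gene cdx1a (-0.51 ± 0.11, adjusted p = 0.0099), msx1a (-0.38 ± 0.08, adjusted p = 0.00729), the Notch and Bmp target gene hey1 (-0.35 ± 0.08, adjusted p = 0.0169) and the epidermal factor gene tp63 (-0.31 ± 0.07, adjusted p = 0.014) were lower. The tp63 gene counts among the epidermal markers too. Of these 7 calls, 3 held when any one array was left out. The calls of vent and gata2a were lost without any of 5 and 6 arrays, with adjusted p up to 0.114 and 0.156 without the morphant array numbered 3 at 10 somites. Those of hey1 and tp63 were lost without any of 3 and 2 arrays, with adjusted p up to 0.0718 (control 1 left out) and 0.0699 (morphant 2 left out). Leaving out control 2, morphant 1 or morphant 3 at 10 somites left 1 gene called higher, and leaving out morphant 2 left 2 called lower. Without the 4 arrays numbered 1, none of the 27 genes was called in either direction.

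**Figure D4:**
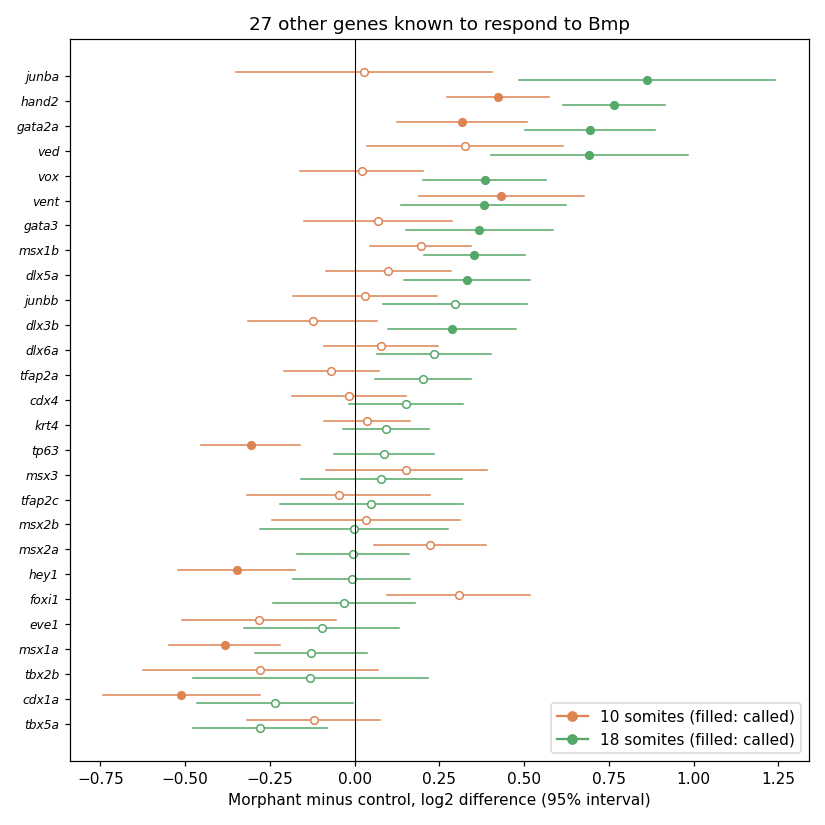
Morphant minus control log2 difference of 27 further genes known to respond to Bmp, at 10 somites (orange) and 18 somites (green), with 95% intervals, filled points where called and genes ordered by the later difference. At 18 somites 10 genes were called higher, from dlx3b at 0.29 to junba at 0.86, and at 10 somites 3 were called higher and 4 lower.

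Of 15 genes downstream of Nodal in the gastrula, 3 were higher and 1 lower in morphants at 10 somites, and 4 were higher and 1 lower at 18 somites. These are 26.7% and 33.3% of the list, against 8.17% and 12.5% of all probe sets, and 6 of the 15 genes lay in the tag range in controls at each stage. The endoderm factor gene sox32 (0.91 and 1.04) and mixl1 (0.90 and 0.44) were higher at both stages, as was gata5 (0.28 and 0.34), and the mesoderm factor gene tbx16 was higher at 18 somites (0.33). The probe sets of sox32 and mixl1 are not among the 60% brightest. Among those, 1 gene of the list was higher at 10 somites and 2 at 18 somites. The foregut and floor plate factor gene foxa2 was lower at 10 somites (-0.35, adjusted p = 0.0187). The calls of gata5 at 10 somites, foxa2 and tbx16 were lost without any of 6, 3 and 4 single arrays, with adjusted p up to 0.155 (without the morphant array numbered 3 at 10 somites), 0.0928 (without the control array numbered 2 at 10 somites) and 0.117 (without the morphant array numbered 2 at 18 somites). The Nodal antagonist gene lft1, which is also a Nodal target and marks the left side, read 6.75, 6.81 and 6.55 in controls against 6.32, 5.88 and 5.87 in morphants at 18 somites. It counts in the next list too. It was lower without overlap by 0.68 at 18 somites (-0.68 ± 0.15, adjusted p = 0.00848). At 10 somites, with group means of 5.90 and 5.87, it lay in the tag range, so background limits what could be seen of a fall there.

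Of 13 other extracellular modulators, twsg1b was lower at 10 somites (-0.36 ± 0.08, adjusted p = 0.0141), and at 18 somites the repulsive guidance receptor gene neo1a was higher (0.32 ± 0.07, adjusted p = 0.0127) and lft1 lower. These are 7.69% and 15.4% of the list, near the 8.17% and 12.5% of all probe sets called. Twisted gastrulation proteins bind Bmp and Chordin. The twsg1b and neo1a calls were lost without any of 4 and 2 single arrays, with adjusted p up to 0.0653 and 0.0535, in each case without the morphant array numbered 2 of that stage. None of 4 other ligand genes (admp, amh, mstnb and spaw) was called, with differences from -0.19 to 0.14.

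Of 18 other intracellular genes, 2 were higher at 10 somites and 3 at 18 somites, and none was lower. These are 11.1% and 16.7%, near the 8.17% and 12.5% of all probe sets called. The inner nuclear membrane gene lemd3, whose human protein binds Smads and restrains their activity, was called at both stages. It read 9.95, 9.89 and 10.03 in controls against 10.57, 10.57 and 10.67 in morphants at 10 somites, then 8.76, 8.72 and 8.86 against 9.23, 9.33 and 9.11 at 18 somites. The groups did not overlap, and the differences were 0.65 ± 0.07 (adjusted p = 0.000126) and 0.45 ± 0.07 (adjusted p = 0.00148). The kinase receptor-associated gene strap was higher at 10 somites (0.31 ± 0.09, adjusted p = 0.0395), a call lost without any of 7 single arrays (adjusted p up to 0.12 without the morphant array numbered 1). At 18 somites the Smad corepressor gene tgif1 (0.37 ± 0.08, adjusted p = 0.01) and the TAK1-binding gene tab1 (0.34 ± 0.08, adjusted p = 0.00982) were higher, and both calls were lost without the 4 arrays numbered 1 (adjusted p = 0.088 and 0.0787). The Smad ubiquitin ligase genes smurf1 and smurf2 were not called, with differences from -0.15 to 0.14.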

How the data were processed

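The authors deposited log2 values per probe set, and RMA and the affy package are named, with no version, per the submitters' processing notes. The sources used here do not give which arrays RMA treated together. Per the labels' protocols, biotinylated cRNA was made from 6 µg of total RNA. Tests left out 115 AFFX control probe sets. Of the 15502 probe sets tested, 10795 have 1 symbol, 135 several and 4572 none. Of the 50 genes, 49 matched RefSeq by gene ID (names only). No signal was treated as absent. Precision is limited by the number of arrays.

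One mean per group was fitted to all 12 arrays with limma 3.58.1 (lmFit, then eBayes) under R 4.3.3 (8 residual and 6.06 prior degrees of freedom), with two-sided p-values. Stage changes used arrays centred on their medians. Fold values are 2 to the power of the difference. The fit was tested on simulated data with independent noise on each array, which could not check it under deviations that same-numbered arrays share.

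The replicate numbers come from the sample titles. Same-numbered arrays deviated together from their group means, with correlations from 0.214 to 0.548 within a stage and from 0.18 to 0.485 across stages. Correlations of differently numbered arrays ran from -0.427 to 0.231 within a stage and from -0.313 to 0.111 across stages. The main fit did not pair the arrays, and the replicate number was a block only in alternatives. For the pbx effect at either stage this block was separate for each stage. For the difference between the effects and for the stage changes it was shared by both stages.

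The 50 genes and the gene lists were chosen with earlier results of these data known. Named with array values are genes called in a pbx effect and a panel of central pathway genes. Of the stage changes, the 6 largest called rises and falls in controls are named, and of the lists every gene called. Further list genes were named after their values were seen. Alternatives covered scaling, the prior, array weights, low signals, several probe sets per gene, blocks, single stages and left-out arrays. The block shared by both stages in the fits of the pbx effects, and the omission of the 4 arrays numbered 1, were added after seeing the data.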

Additional observations from a re-analysis of the deposited data

How the results depend on the processing

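With 3 arrays per group, many calls were lost when a single array was left out. Calls lost without any of 7, 9 or 10 single arrays, such as that of dlx3b, include losses without arrays of the other stage. Over the named genes and alternatives, 2212 values kept their direction and side of the threshold, 144 kept their direction but lost the call, 27 gained one and 29 changed sign. What caused these changes was not tested. Of the 50 genes, 4 were called at 10 somites, 8 with array weights, 2 when that stage was fitted alone, 2 without the 4 arrays numbered 1 and 2 to 4 when single arrays were left out, and the calls at 18 somites ranged from 8 to 10 with single arrays left out, against 10. The difference between the effects gave 0 genes, 1 with an intensity trend, with array weights and with the replicate block, and 0 to 1 with single arrays left out. Among all probe sets 1267 were called at 10 somites, 2447 with array weights, 2040 with the replicate block, 2155 with a block shared by both stages, 333 without the arrays numbered 1 and 643 to 1447 with single arrays left out. At 18 somites 1935 were called, 677 without the arrays numbered 1 and 1213 to 1987 with single arrays left out. The difference between the effects gave 5 probe sets, 14 with centred arrays, 11 with quantile normalization, 24 with a trend, 32 with array weights, 3 among the 60% brightest, 8 with probe sets of a gene averaged, 55 with the replicate block, 0 without the arrays numbered 1 and 1 to 20 with single arrays left out.

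For stage changes without centring, all 50 genes were called in controls and in morphants, and 14805 and 14773 probe sets, of which 255 and 286 were higher and 14550 and 14487 lower. Among the 60% brightest, 4707 and 5112 probe sets were called, against 7892 and 8281. Of these brightest, 1462 and 1584 were higher and 3245 and 3528 lower. With single arrays left out, 22 to 24 and 19 to 25 of the 50 genes and 6737 to 8194 and 7171 to 8324 probe sets were called. Without centring the changes in controls and morphants were -0.33 and -0.29 for id2b, -0.37 and -0.30 for bmp8a, -0.41 and -0.57 for tgfbr2b, -0.42 and -0.50 for fstl1b and -0.47 and -0.52 for gdf7. Of 27 Bmp target candidates, the count called higher at 10 somites went from 3 to 6 with array weights, 4 with the replicate block, 0 without the arrays numbered 1 and 1 to 4 with single arrays left out, while the 4 called lower also became 0 without the arrays numbered 1. At 18 somites the count called higher went from 10 to 12 with the replicate block, 8 with centred arrays or quantile normalization and 5 without the arrays numbered 1. It was 6 to 10 with single arrays left out. None was called lower there in the main fit, and 1 was with the replicate block, centred arrays or quantile normalization.

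The other changes of sign are in small differences that were not called or, for bmp3, in the difference between its effects. They were tgfb1a at 10 somites with quantile normalization (0.0012), smad2 in the difference with array weights (-0.0048), smad5 at 18 somites with probe sets averaged (-0.049), and bmp4 (0.047) and nog1 (0.0275) at 18 somites without the arrays numbered 1. With single arrays left out the ranges were -0.0853 to 0.0105 for tgfb1a and -0.0038 to 0.0262 for id3 at 10 somites, -0.15 to 0.11 for bmp4, -0.12 to 0.038 for nog1 and -0.0827 to 0.12 for bmp7a at 18 somites, and -0.17 to 0.0267 for bmp3 and -0.0243 to 0.0718 for smad2 in the difference between the effects. The replicate block passed the threshold for id2a at 10 somites, tbx5a at 18 somites, the difference for szl the stage changes of fsta and ndr2 in controls and those of tgfbr2b, gdf7, gdf6a, ndr1 and fstl5 in morphants, so that 26 rather than 24 and 27 rather than 22 of the 50 genes were called with stage. It ended no call of the 50 genes or of the listed genes. Among the Bmp target candidates it added foxi1 at 10 somites and junbb and dlx6a at 18 somites. Signals near the tag range limit what falls can be seen.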
